A study of Homo sapiens with 24 samples.

Results

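The 9 genes described here were *HRAS*, *NRAS*, *RRAS*, *RRAS2*, *MRAS*, *NF1*, *RASA1*, *EVI2A* and *EVI2B*, chosen by symbol from the 25702 Entrez gene identifiers of the count files. All 9 were found and all 9 had enough reads to be tested. The choice was made with the expression of these genes in the 4 groups in view, so differences between groups are given for them as descriptions, with a standard error (SE) and no p-value. RNA sequencing was done on IMR90 cells, a line of human diploid fibroblasts from lung, and all 24 samples carried a retroviral ER:HRAS(G12V) transgene, which encodes oncogenic HRAS fused to an oestrogen receptor and is switched on as a protein by 4-hydroxytamoxifen (4OHT). The growing samples (n = 6) had in addition an empty MSCV vector and no 4OHT, and the RIS samples (RAS-induced senescence, n = 6) had the same vector and 6 days of 4OHT. The shHMGA1 samples (n = 6) had MSCV miR30 shHMGA1, a hairpin against the chromatin protein HMGA1, and no 4OHT, and the RIS+shHMGA1 samples (n = 6) had this hairpin and 6 days of 4OHT. The labels name 1 hairpin construct and call the 6 samples of a group biological replicates. No sample lacked the transgene, so no group gives the level of *HRAS* without it.

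RAS proteins are small GTPases that carry signals from growth factor receptors when bound to GTP. Exchange factors load them with GTP, and GTPase-activating proteins, among them neurofibromin (the product of *NF1*) and p120 RasGAP (the product of *RASA1*), return them to the inactive form. Oncogenic RAS in normal fibroblasts first drives proliferation and then a stable arrest, senescence. *EVI2A* and *EVI2B*, named after a site of viral integration in mouse leukaemias, encode membrane proteins, EVI2B being known mainly from blood cells, and both genes lie inside *NF1*.

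Counts per gene cannot separate the transgene from the *HRAS* gene of the cell, and reads can be shared between genes of like sequence, so the GENCODE transcripts on GRCh37 were compared. The longest run of identical bases shared by the whole *HRAS* transcript and that of another of the 5 RAS genes was 17 bases, with *MRAS*. No stretch of 50 bases of the *HRAS*, *NRAS*, *RRAS* or *MRAS* transcript occurred in another annotated gene, whereas 11.6% of those of *RRAS2* did, mainly in the pseudogene *RRAS2P1*, and 3.17% of those of *NF1*, mainly in its pseudogenes. For *RASA1* the share was 13%, all in transcripts of the opposite-strand gene *CCNH*. The shares were largest for *EVI2B* (23.6%) and *EVI2A* (17.6%), in an annotated read-through gene on their own strand and, for *EVI2A*, in annotated sequence of *NF1* on the opposite strand as well. For reads from these stretches, the counts of *RRAS2*, *NF1*, *RASA1*, *EVI2A* and *EVI2B* are uncertain.

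Libraries held 8698070 to 23103424 counts (median 10604083). Levels are given as CPM, counts per 1000000 counts of the library, on library sizes scaled by the trimmed mean of M values (TMM). *HMGA1* itself was at 639 to 861 CPM in the 12 vector samples and at 54.4 to 262 CPM in the 12 hairpin samples, without overlap. All 10 fibroblast markers examined passed the filter on low counts. 2 libraries went against their labels: on the first principal component, which held 73.9% of the variance, the library labelled growing replicate 4 (77.3) lay on the side of the RIS samples, and the library labelled RIS replicate 2 (−77.1) lay among the growing samples. Comparisons of the 9 genes that use the growing or RIS group are therefore given with both libraries and without them, where a value stands for all samples unless said otherwise. A gene is counted as called where edgeR's quasi-likelihood test gave a Benjamini-Hochberg false discovery rate under 0.01 and the absolute log2 fold change was over 0.58. In RNA from whole cultures, fewer cells that express a gene and less RNA of it per cell cannot be told apart.

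The summed fibroblast and endothelial markers moved with 4OHT, while the summed epithelial markers overlapped in both 4OHT comparisons. The summed level of the 10 fibroblast markers was 16537 to 23143 CPM in shHMGA1 and 6186 to 8430 CPM in RIS+shHMGA1 cells, and, without the 2 libraries, 25528 to 45492 in growing and 8004 to 12697 in RIS cells, without overlap in either pair. *COL1A1* alone reached up to 23307 CPM, so few of the 10 genes can carry this sum, which says little about the others. The summed level of 5 endothelial markers, of which only *TEK* passed the filter, was 70.4 to 125 CPM in shHMGA1, 15.4 to 23.3 in RIS+shHMGA1 and, without the 2 libraries, 76.8 to 110 in growing and 14.5 to 29.9 CPM in RIS cells. The summed level of 6 epithelial markers was 36.6 to 47.3 CPM in shHMGA1 and 40 to 45.8 CPM in RIS+shHMGA1 cells. Without the 2 libraries it was 46.8 to 51.7 CPM in growing and 46.8 to 54.8 CPM in RIS cells. Some sums differed with the hairpin as well. Without the 2 libraries the fibroblast sums were lower in shHMGA1 than in growing cells, without overlap. The epithelial sums were lower in RIS+shHMGA1 than in RIS cells (46 to 54.8 CPM with all samples), without overlap. The other sums given here overlapped between hairpin and vector cells. The part of these shifts in the differences with 4OHT or with the hairpin given below was not tested.

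*HRAS* was by far the highest of the 9 genes. Per kilobase of its main transcript, the mean over the 24 samples was 2128 CPM for *HRAS*, against 121 for *RRAS*, 29.1 for *NRAS*, 18.7 for *RASA1*, 18.6 for *MRAS*, 8.98 for *RRAS2*, 4.50 for *NF1*, 1.85 for *EVI2A* and 1.12 for *EVI2B*. The ranges over samples of *HRAS* (1445 to 3237 CPM per kilobase) and *RRAS* (69 to 191) overlapped with no other gene, and from *NRAS* (19.7 to 40.3) downwards each gene overlapped with the next in this order. Reads on *HRAS* made up 0.129% to 0.38% of all counts of a sample.

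*HRAS* transcript was lower, not higher, in the groups that received 4OHT, which acts on the fusion protein. In growing cells *HRAS* ranged from 2112 to 3031 CPM (median 2525), in shHMGA1 cells from 2093 to 3463 (median 2720), in RIS cells from 1858 to 2735 (median 2068) and in RIS+shHMGA1 cells from 1546 to 1992 (median 1791). Every RIS+shHMGA1 sample lay below every sample without 4OHT, while RIS and growing samples overlapped through the library labelled RIS replicate 2, at 2735 CPM. For *HRAS* the log2 fold change was −0.59 (SE 0.14) in RIS+shHMGA1 against shHMGA1 and −0.51 (SE 0.14) in RIS+shHMGA1 against growing, or −0.56 without the 2 libraries, of which only that against shHMGA1 passed both thresholds. That call lay at the fold-change threshold and was made in 8 of 14 fits, the one given here included. It was lost, among others, without the samples numbered 2 (−0.56), 3 (−0.54) or 4 (−0.56). In RIS against growing *HRAS* differed by −0.25 (SE 0.14), and by −0.38 (SE 0.13) without the 2 libraries. The groups then did not overlap but nearly touched, at 2110 CPM in RIS replicate 3 and 2112 CPM in growing replicate 5. Hairpin and vector cells differed by 0.08 (SE 0.14) without 4OHT and by −0.26 (SE 0.14) with 4OHT, or by 0.04 and −0.18 without the 2 libraries.

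The gene of the fusion partner, *ESR1*, which encodes the oestrogen receptor alpha, was not among the 9 genes and was tested. It ranged from 1303 to 1906 CPM in growing cells, 1347 to 1994 in shHMGA1 cells, 1238 to 1741 in RIS cells and 876 to 1165 in RIS+shHMGA1 cells, so that the RIS+shHMGA1 samples lay below all others. *ESR1* fell in RIS+shHMGA1 against shHMGA1 by 0.64 on the log2 scale (SE 0.13, adjusted p = 0.00058, edgeR) and against growing by 0.61 (SE 0.13, adjusted p = 0.00069, edgeR) or, without the 2 libraries, by 0.67, of which the second was not past the fold-change threshold without the samples numbered 2 or 6 (−0.57 in both). The difference between RIS and growing was −0.26 (SE 0.13, adjusted p = 0.17, edgeR), and −0.40 (SE 0.12) without the 2 libraries. Because *ESR1* counts moved with those of *HRAS*, as given below, these p-values are no separate evidence on *HRAS*.

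*HRAS* and *ESR1* moved together from sample to sample. The ratio of *HRAS* to *ESR1* counts was 1.59 ± 0.114 (SD, n = 24) and stayed between 1.43 and 1.99, while the *HRAS* level itself spanned 1546 to 3463 CPM. By group the ratio was 1.54 ± 0.0919 in growing cells, 1.59 ± 0.0782 with the hairpin, 1.55 ± 0.0475 in RIS cells and 1.66 ± 0.181 with the hairpin in RIS cells (SD, n = 6 each). Among all tested genes, the 5 whose log2 CPM followed *HRAS* most closely over the 24 samples were *CDKN2D* (Pearson's r = 0.955), *CRIP2* (0.953), *ESR1* (0.952), *SHISA5* (0.946) and *PDLIM1* (0.945), a description over samples that share the groups and the library scaling. The sources used here do not say which part or species of the receptor is in the fusion, and the share of either gene's reads that came from the transgene was not tested.

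**Figure D1:**
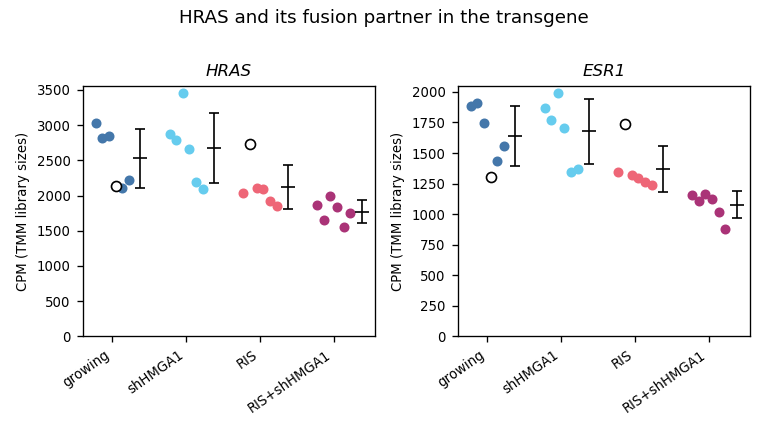
CPM of *HRAS* (left) and *ESR1* (right) in each of the 24 samples, with 1 point per sample and the mean ± SD of the 6 samples beside each group. Open points are the libraries labelled growing replicate 4 and RIS replicate 2. *HRAS* in RIS+shHMGA1 samples sits between 1546 and 1992 CPM and *ESR1* between 876 and 1165 CPM, below all samples without 4OHT.

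*NRAS*, one of the classical RAS oncogenes, overlapped between all groups: it ranged from 85.6 to 170 CPM in growing cells (median 123), from 100 to 159 in shHMGA1 cells (median 127), from 85.3 to 133 in RIS cells (median 115) and from 89.9 to 174 in RIS+shHMGA1 cells (median 144). Its log2 fold change was 0.07 (SE 0.17) in RIS+shHMGA1 against shHMGA1 and −0.18 (SE 0.17) in RIS against growing, the latter −0.09 (SE 0.17) without the 2 libraries, values close to or under their errors. On the scale of raw totals, without TMM, *NRAS* gave −0.39 for the first of these, a value near the shift of −0.46 that the median of all genes showed on that scale, so that no direction is given for *NRAS*.

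*RRAS2*, which encodes the R-RAS relative TC21, was lower with 4OHT. It ranged from 21.7 to 28.5 CPM in shHMGA1 cells (median 24.8) and from 12.2 to 19.4 in RIS+shHMGA1 cells (median 17.8), without overlap, and the log2 fold change was −0.57 (SE 0.16), just short of the fold-change threshold. In growing cells it ranged from 19.0 to 37.9 CPM (median 26.4) and in RIS cells from 12.4 to 22.0 (median 15.9), and the groups overlapped through growing replicates 1 and 4 (19.0 and 19.3 CPM) and RIS replicate 2 (22.0 CPM). *RRAS2* had a log2 fold change in RIS against growing of −0.68 (SE 0.16), not called, and of −0.86 (SE 0.16), called, without the 2 libraries, when the groups no longer overlapped.

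*MRAS*, whose product acts with SHOC2 on RAF kinases, was lower with 4OHT as well. In shHMGA1 cells it ranged from 77.0 to 88.1 CPM (median 83.2) and in RIS+shHMGA1 cells from 53.1 to 74.5 (median 64.8), without overlap. Growing cells had 64.6 to 98.3 CPM (median 90.9) and RIS cells 61.4 to 94.4 (median 65.8), but 5 of 6 growing samples were at 89.8 or above and 5 of 6 RIS samples at 67.5 or below, the others being the 2 libraries against their labels. *MRAS* had a log2 fold change of −0.38 (SE 0.11) in RIS+shHMGA1 against shHMGA1 and −0.33 (SE 0.11) in RIS against growing, the latter −0.51 (SE 0.09) without these libraries. None of these values reached the fold-change threshold.

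*RRAS*, which encodes R-RAS, a regulator of cell adhesion, overlapped between groups as *NRAS* did. It ranged from 87.0 to 171 CPM in growing cells (median 125), from 94.5 to 188 in shHMGA1 cells (median 154), from 68.0 to 125 in RIS cells (median 102) and from 69.7 to 125 in RIS+shHMGA1 cells (median 110). Its log2 fold change was −0.44 (SE 0.19) in RIS+shHMGA1 against shHMGA1 and −0.40 (SE 0.19) in RIS against growing, the latter −0.49 (SE 0.20) without the 2 libraries, and *RRAS* was called in none of these.

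*RASA1*, which encodes a GTPase-activating protein, had the largest difference of the 9 genes with 4OHT in hairpin cells. In shHMGA1 cells it ranged from 96.5 to 113 CPM (median 111) and in RIS+shHMGA1 cells from 45.3 to 63.0 (median 56.0), without overlap, and the log2 fold change was −0.97 (SE 0.18), which was called. Growing cells had 57.9 to 141 CPM (median 117) and RIS cells 60.4 to 138 (median 74.0). The lowest growing value and the highest RIS value were again those of the 2 libraries against their labels, and the remaining 5 growing samples lay at 110 CPM or above and the remaining 5 RIS samples at 81.0 CPM or below. *RASA1* differed by −1.02 (SE 0.18) in RIS+shHMGA1 against growing, and by −1.15 (SE 0.10) without these libraries, called in both. The log2 fold change of *RASA1* in RIS against growing was −0.44 (SE 0.18), not called, and −0.79 (SE 0.10), called, without these libraries. Between RIS+shHMGA1 and RIS it was −0.57 (SE 0.18), and −0.36 (SE 0.10) without these libraries, not called in either.

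**Figure D2:**
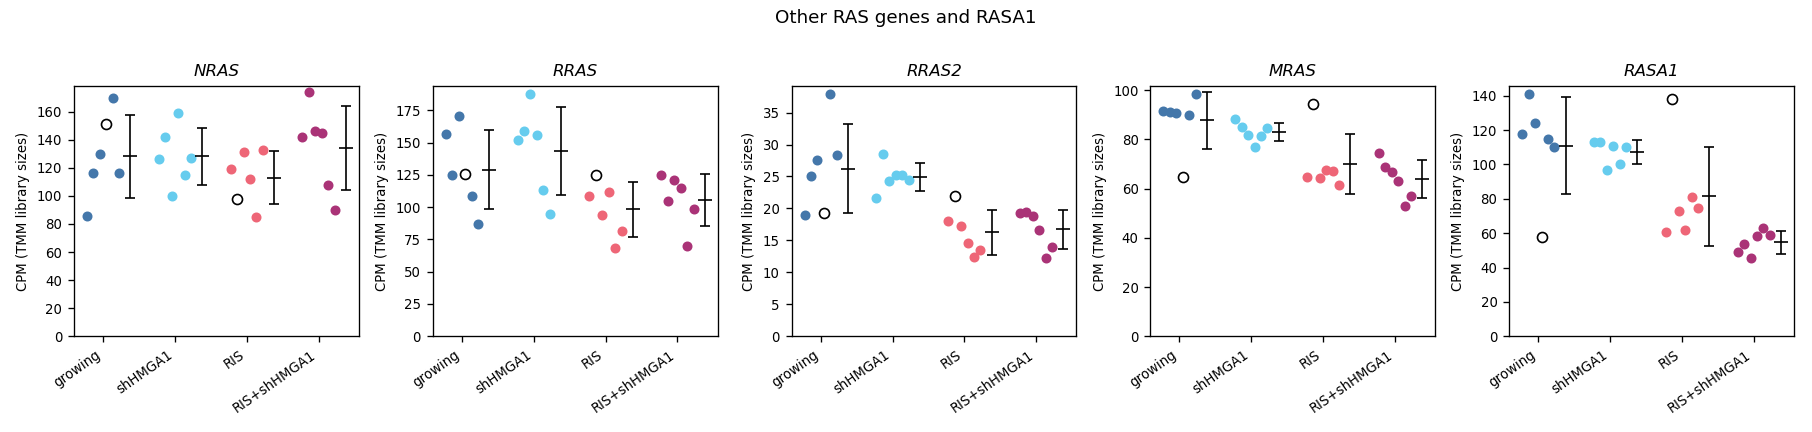
CPM of *NRAS*, *RRAS*, *RRAS2*, *MRAS* and *RASA1* in each of the 24 samples, with 1 point per sample, the mean ± SD of the 6 samples beside each group and open points for the libraries labelled growing replicate 4 and RIS replicate 2. For *MRAS* and *RASA1* the open points lie with the other treatment, and RIS+shHMGA1 samples of *RASA1* (45.3 to 63.0 CPM) lie below all shHMGA1 samples (96.5 to 113 CPM).

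*NF1* had its lower medians in the hairpin groups, by amounts that were not called against the vector groups with all 24 samples. It ranged from 36.8 to 78.5 CPM in growing cells (median 68.0), from 46.1 to 56.3 in shHMGA1 cells (median 49.7), from 48.3 to 87.6 in RIS cells (median 58.6) and from 36.5 to 61.1 in RIS+shHMGA1 cells (median 40.6). 5 of 6 RIS+shHMGA1 samples were at 41.7 CPM or below, under every RIS and every shHMGA1 sample, and the remaining one, replicate 5, was at 61.1 CPM. For *NF1* the log2 fold change was −0.59 (SE 0.18) for RIS+shHMGA1 against RIS and −0.34 (SE 0.17) for shHMGA1 against growing, or −0.48 and −0.46 without the 2 libraries. Against growing, RIS+shHMGA1 differed by −0.57 (SE 0.18), not called, and by −0.69 (SE 0.14), called, without the 2 libraries.

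*EVI2A* and *EVI2B* lie in intron 36 of the 57 introns of *NF1*, at chr17:29592358-29652837 on GRCh37, which is 60480 bases long and holds *OMG* as well. *EVI2A* is at chr17:29643428-29648767 and *EVI2B* at chr17:29630788-29641123, both on the minus strand with 2 exons each, while *NF1* (chr17:29421945-29709134) is read from the plus strand. The exons of the main transcripts of these genes share no base with those of *NF1*. An annotated read-through transcript on the minus strand covers 524 exon bases of *EVI2A* and 484 of *EVI2B*, so that reads there cannot be assigned to 1 of them with certainty. The libraries were made with a kit that keeps the strand, but whether counting used it is not given in the sources used here, and without it reads of unspliced *NF1* cannot be told apart from reads of its nested genes where they overlap exons.

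*EVI2A* was higher in both hairpin groups than in both vector groups. Counts were low, from 5 to 35 per sample in vector cells and from 38 to 169 in hairpin cells. In CPM, growing samples 1 to 6 were at 1.39, 1.39, 2.06, 4.12, 2.44 and 0.435, and RIS samples 1 to 6 at 1.37, 0.998, 2.57, 2.18, 0.846 and 0.730. The shHMGA1 samples 1 to 6 were at 3.15, 3.70, 5.35, 8.64, 10.4 and 7.27 CPM, and the RIS+shHMGA1 samples at 10.9, 12.4, 11, 12.1, 7.32 and 8.73 CPM. All hairpin samples lay above all vector samples but for 1 overlap, since growing replicate 4 (4.12 CPM), a library against its label, exceeded 2 of the shHMGA1 samples.

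The log2 fold change of *EVI2A* was 2.84 (SE 0.39) for RIS+shHMGA1 against RIS and 2.45 (SE 0.38) for RIS+shHMGA1 against growing, both called, and 2.75 for each without the 2 libraries. For shHMGA1 against growing it was 1.76 (SE 0.37), not called, and 2.07 (SE 0.34), called, without the 2 libraries. With 4OHT *EVI2A* differed by −0.39 (SE 0.40) in vector cells and 0.69 (SE 0.34) in hairpin cells, neither of them called, and by 0.00 (SE 0.41) in vector cells without the 2 libraries. The difference between the effects in hairpin and vector cells was 1.08 (SE 0.53), or 0.68 (SE 0.50) without the 2 libraries, and was not called.

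*EVI2B*, which encodes a surface glycoprotein of blood cells, was likewise highest in RIS+shHMGA1 cells and next highest in shHMGA1 cells, with 7 to 20 counts per sample in vector cells and 11 to 50 in hairpin cells. Growing samples were at 0.754 to 1.55 CPM (median 1.24), RIS samples at 0.998 to 1.85 (median 1.29), shHMGA1 samples at 0.966 to 3.49 (median 2.44) and RIS+shHMGA1 samples at 2.56 to 4.96 (median 3.93). Every RIS+shHMGA1 sample lay above every vector sample, while shHMGA1 replicates 2 and 3 (1.26 and 0.966 CPM) lay among the vector samples. The log2 fold change of *EVI2B* was 1.53 (SE 0.28) for RIS+shHMGA1 against RIS and 1.70 (SE 0.28) against growing, both called, and 0.94 (SE 0.28) for shHMGA1 against growing, not called. Without the 2 libraries these values were 1.46, 1.67 and 0.91. The call against RIS was lost, at log2 fold changes of 1.39 to 1.55, in each of 5 fits that left out the samples numbered 1, 2, 3, 5 or 6.

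The third gene in this intron, *OMG*, a myelin glycoprotein gene of the nervous system, had 0 to 3 counts per sample and did not pass the filter. The host gene did not follow its nested genes: per 100 counts of *NF1* there were 3.83 ± 3.82 counts of *EVI2A* in growing, 2.52 ± 1.67 in RIS, 13.0 ± 6.33 in shHMGA1 and 25.2 ± 6.84 in RIS+shHMGA1 cells (SD, n = 6 each), or 2.35 ± 1.40 in growing and 2.79 ± 1.71 in RIS cells without the 2 libraries (SD, n = 5 each). The genes whose log2 CPM followed *EVI2A* most closely over the 24 samples were *HTATIP2* (Pearson's r = 0.953), *TRAM2-AS1* (0.939), *PTGR1* (0.919), *SLC35G2* (0.918) and *NUDCD2* (0.917).

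Since EVI2B is known from blood cells, leukocyte markers were read beside them. Of 9 leukocyte markers, 3 (*LAPTM5*, *CD68* and *CORO1A*) passed the filter, *TYROBP* was at 0 counts in all samples, *CD53* had at most 1 count and *PTPRC*, which encodes the pan-leukocyte antigen CD45, had at most 7. The summed level of the 9 markers was 43.2 to 98.9 CPM in growing cells, 45.3 to 85.4 in shHMGA1 cells, 65.9 to 119 in RIS cells and 58.7 to 80.2 in RIS+shHMGA1 cells, so that the hairpin and vector samples overlapped. Most of this sum was *CD68*, at 40.2 to 95.7 CPM in growing and 42.2 to 81.5 CPM in shHMGA1 cells. In RIS cells *CD68* was at 61.3 to 105 CPM and in RIS+shHMGA1 cells at 55 to 74.4 CPM. The overlap of the sums is therefore mainly that of *CD68*, and says little about the other markers. *LAPTM5*, a lysosomal membrane protein gene of blood cells, was at 0 to 7.59 CPM in growing (median 0.242), 0 to 0.337 in shHMGA1 (median 0.159), 0.363 to 12 in RIS (median 6.79) and 1.71 to 6.09 CPM in RIS+shHMGA1 cells (median 3.99). It lay higher with 4OHT in hairpin cells, without overlap. In vector cells it did so too without the 2 libraries, at 0 to 0.464 CPM in growing and 2.56 to 12 CPM in RIS cells. The median of *LAPTM5* in RIS cells was above that of RIS+shHMGA1 cells, where *EVI2A* and *EVI2B* were highest. *CORO1A* went the other way, at 1.53 to 2.63 CPM in shHMGA1 and 0.595 to 1.28 CPM in RIS+shHMGA1 cells, without overlap. Its median was 2.14 CPM in growing and 1.09 CPM in RIS cells. *CD68* overlapped between shHMGA1 and RIS+shHMGA1 cells.

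**Figure D3:**
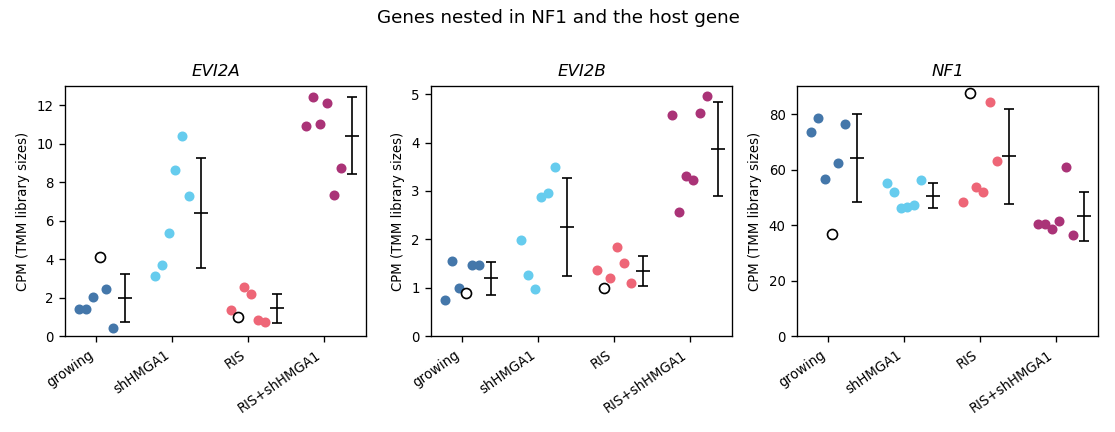
CPM of *EVI2A*, *EVI2B* and *NF1* in each of the 24 samples, with 1 point per sample, the mean ± SD of the 6 samples beside each group and open points for the libraries labelled growing replicate 4 and RIS replicate 2. *EVI2A* is at 3.15 to 12.4 CPM in hairpin samples and at 0.435 to 4.12 CPM in vector samples, while *NF1* is lowest in RIS+shHMGA1 samples (median 40.6 CPM).

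Across the 9 genes, 4OHT in hairpin cells (RIS+shHMGA1 against shHMGA1) went with 2 called, *HRAS* and *RASA1*, both lower, where 39.1% of all 13356 tested genes were called and 19.5% were called lower. 4 of the 9 (*HRAS*, *RRAS2*, *MRAS* and *RASA1*) were lower without overlap between groups, as were 22.5% of all tested genes. The median log2 fold change of the 9 genes was −0.38, beside −0.02 for all tested genes. In RIS against growing none of the 9 was called by edgeR and neither was any other gene (0% of those tested). Of all genes, however, 4407 had an unadjusted p under 0.05 in edgeR, and DESeq2 called 1 of the 9, *RRAS2*, and 826 of all genes. Without the 2 libraries 2 of the 9 were called in RIS against growing, *RRAS2* and *RASA1*, both lower, where 20.5% of all genes were called lower. *HRAS* (by a narrow margin), *RRAS2*, *MRAS* and *RASA1* were then lower without overlap between groups, as were 19.3% of all genes.

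The hairpin in RIS cells (RIS+shHMGA1 against RIS) went with 2 of the 9 called, *EVI2A* and *EVI2B*, both higher and without overlap, where 2.55% of tested genes were called, 1.77% called higher and 8% higher without overlap. Without the 2 libraries the same 2 genes were called, where 12.5% of all genes were called, 10% called higher and 8.62% higher without overlap. Without 4OHT (shHMGA1 against growing) none of the 9 was called, where 0.27% of all genes were. In that comparison DESeq2 called *EVI2A*, and edgeR called *EVI2A* without the 2 libraries, when 1.21% of all genes were called higher. Without these libraries *MRAS*, *NF1* and *EVI2A* did not overlap between shHMGA1 and growing samples, as 6.87% of all genes did not. In RIS+shHMGA1 against growing 4 of the 9 were called, *RRAS2* and *RASA1* lower and *EVI2A* and *EVI2B* higher, where 45.9% of all genes were called, and 5 without the 2 libraries, with *NF1* lower as well, where 56.9% were. With all samples *HRAS* (lower), *EVI2A* and *EVI2B* (higher) did not overlap, as 6.42% of all genes did not, and without the 2 libraries *MRAS* and *RASA1* (lower) did not either, as 54.6% of all genes did not. The hairpin and 4OHT had no called interaction for any of the 9 or any other gene (0%) in edgeR. Of all genes 1371 were at an unadjusted p under 0.05 in edgeR, and DESeq2 called 0 of the 9 and 4 of all genes. Without the 2 libraries 0 of the 9 and 1 of all genes (0.00745%) had a called interaction. The rule that chose the 9 genes used these comparisons, and comparisons that involve the same group share its samples.

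**Figure D4:**
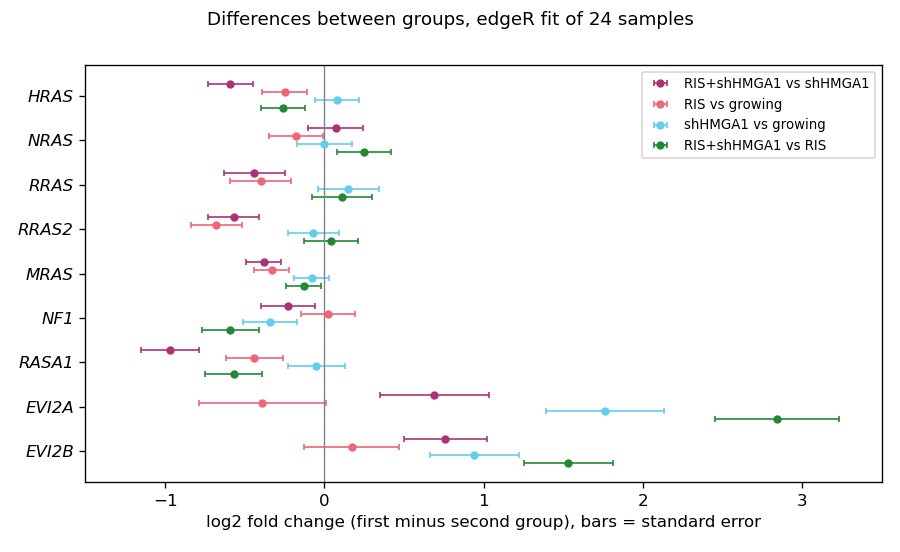
Log2 fold change of each of the 9 genes in 4 comparisons, with bars for the standard error, from 1 edgeR fit of all 24 samples. *EVI2A* and *EVI2B* lie to the right in both comparisons of hairpin with vector cells (2.84 and 1.53 in RIS cells), and *RASA1* lies farthest to the left with 4OHT in hairpin cells (−0.97).

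The rest of the RAS pathway was read from a list of 75 other genes, of which 64 were tested. In RIS+shHMGA1 against shHMGA1, 13 rose, 7 fell and 44 were not called, with a median log2 fold change of 0.15, where 19.6% of all tested genes were called higher and 19.5% lower. Without the samples numbered 1 it was 8 that rose and 2 that fell, without those numbered 3 it was 7 and 3, and without those numbered 6 it was 3 that fell. Of the RAS-related GTPases 8 of 18 tested rose and 0 fell, with a median of 0.74. Among them *RASD1*, a GTPase induced by dexamethasone, rose by 2.75 (SE 0.65, adjusted p = 0.0014, edgeR), *RALA*, a mediator of vesicle transport downstream of RAS, by 1.71 (SE 0.28, adjusted p = 0.00021, edgeR), *RRAD* by 1.63 (SE 0.42, adjusted p = 0.0028, edgeR) and *RAP2A* by 1.15 (SE 0.24, adjusted p = 0.00071, edgeR) on the log2 scale. *RALA* was at 94.2 to 117 CPM in shHMGA1 and 328 to 378 CPM in RIS+shHMGA1 cells. Pathway genes given with values here and below were chosen for the largest called changes in this comparison. Their small adjusted p-values follow from that choice.

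Of 9 exchange factors and adaptors tested, 2 fell (*GAB1* and *SOS1*) and 0 rose, and *SOS1*, the exchange factor recruited to growth factor receptors, fell by 0.63 (SE 0.18, adjusted p = 0.0045, edgeR). Of 7 GTPase-activating proteins and their regulators tested, *DAB2IP* fell by 1.12 (SE 0.25, adjusted p = 0.0011, edgeR) and *RASAL2* by 0.71 (SE 0.18, adjusted p = 0.0026, edgeR), and *SPRED1*, whose product brings neurofibromin to the membrane, rose, with a median of 0.01 over the 7. Of 20 effectors and kinases of the MAP kinase cascade, 1 rose (*RIN1*) and 2 fell (*PLCE1* and *AFDN*), with *AFDN* lower by 0.75 (SE 0.23, adjusted p = 0.0079, edgeR), and the remaining 17 were not called.

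Of 10 genes for the lipid modification and transport of RAS proteins, 3 rose and 1 fell. *LYPLA1*, an enzyme that removes palmitate, rose by 2.04 (SE 0.49, adjusted p = 0.0017, edgeR), and *FNTA*, a subunit of the farnesyltransferase that attaches the lipid anchor of RAS, by 1.32 (SE 0.32, adjusted p = 0.0017, edgeR). *ICMT*, which methylates the farnesylated end, fell by 1.09 (SE 0.23, adjusted p = 0.0007, edgeR), from 134 to 163 CPM in shHMGA1 cells to 61.5 to 74.8 CPM in RIS+shHMGA1 cells. In RIS against growing 0 of the 64 genes were called by edgeR. Of the 64, 24 were at an unadjusted p under 0.05, beside 4407 of all 13356 tested genes. DESeq2 called 1 of them (*SPRED1*), beside 826 of all genes. Without the 2 libraries 13 rose and 8 fell, where 19.2% of all genes were called higher and 20.5% lower. Against growing, 11 of the 64 rose and 10 fell in RIS+shHMGA1 cells, where 22% of all genes were called higher and 23.9% lower. Without the 2 libraries 17 rose and 15 fell, where 28.3% of all genes were called higher and 28.5% lower. The hairpin alone went with 0 called (8 at an unadjusted p under 0.05, 0 called by DESeq2), where 0.27% of all genes were called. Of all 13356 tested genes 1759 were at an unadjusted p under 0.05 there, and DESeq2 called 97. The hairpin in RIS cells went with 0 called (36 at an unadjusted p under 0.05, 3 called by DESeq2), where 2.55% were. Of all 13356 tested genes 6647 were at an unadjusted p under 0.05 in that comparison, and DESeq2 called 1567. Without the 2 libraries 3 rose with the hairpin in RIS cells, where 10% of all genes were called higher.

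Of 12 genes around *NF1*, *OMG* included, 10 were tested. None of these 10 was called by edgeR in shHMGA1 against growing, where 0.27% of all tested genes were called. There 0 of the 10 were at an unadjusted p under 0.05, beside 1759 of all 13356 genes, and DESeq2 called 0. None was called by edgeR in RIS+shHMGA1 against RIS either, where 2.55% of all genes were called. In that comparison 2 were at an unadjusted p under 0.05, beside 6647 of all genes, and DESeq2 called *TEFM*. *TEFM* differed by 1.12 in RIS+shHMGA1 against RIS (SE 0.33, adjusted p = 0.019, edgeR), with every RIS+shHMGA1 sample above every RIS sample, and without the 2 libraries it was called by edgeR (0.96, SE 0.19, adjusted p = 0.0014). Of all genes, 8% were higher without overlap in RIS+shHMGA1 against RIS, and 10% were called higher without the 2 libraries. In shHMGA1 against growing 0 of the 10 were called without these libraries, where 2.59% of all genes were. With 4OHT in hairpin cells, *TEFM* (1.26, SE 0.33), *COPRS* (1.02, SE 0.23), *CRLF3* (0.78, SE 0.23) and *UTP6* (0.59, SE 0.17) rose and *ATAD5*, a gene of DNA replication, fell by 2.39 (SE 0.43) on the log2 scale, with adjusted p-values from 0.00027 to 0.0066 (edgeR). These were 5 called of the 10 tested, where 39.1% of all tested genes were called. In the same comparison *NF1* differed by −0.23 (SE 0.17).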

How the data were processed

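RNA was sequenced from 24 samples of IMR90 ER:HRAS(G12V) cells with the TruSeq Stranded mRNA kit. Per the submitters' processing notes and the study's methods, the authors trimmed reads with cutadapt 1.10.0, mapped them to hg19 with STAR 2.5.0b, dropped alignments below a mapping quality of 20 and used Rsubread to count the rest per gene. The deposited values are raw counts per Entrez identifier, whole numbers without normalisation. The annotation, the Rsubread version and the strand setting are not given in the sources used here, so how reads in overlapping genes were treated is unknown. Of the 25702 identifiers, 23696 were matched to a symbol in a RefSeq table. Positions and transcript comparisons came from GENCODE transcripts on GRCh37, the same assembly as hg19, with 1 main transcript per gene for lengths.

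Genes were filtered by filterByExpr by group (13356 left), normalised by TMM and fitted in R 4.3.3 with edgeR 4.0.16 as group means over all 24 samples, with quasi-likelihood tests of 5 differences between groups and the interaction. All p-values were adjusted over all tested genes by the Benjamini-Hochberg method. The thresholds were those of the study. The script was tested on simulated data. Alternatives were DESeq2 1.42.0, RLE normalisation, other filters, another false discovery rate, a replicate block, only the samples of the comparison and leaving out samples. The members and the gene lists were chosen with earlier results of these data known. 1 leukocyte marker of the lists is not reported here. From the pathway list the text gives values for the genes with the largest called changes in RIS+shHMGA1 against shHMGA1, up to 6 in each direction among genes with a mean log2 CPM of at least 2. No 2 samples of a group agreed within sampling noise (lowest chi-square per degree of freedom 2.89 over 60 pairs). The total count per sample, 8698070 to 23103424, left at least 5 counts for *EVI2A* and 7 for *EVI2B*, so that counting error adds to the spread between replicates for these genes.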

Additional observations from a re-analysis of the deposited data

Results flagged for a closer look

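In 40 groups of 6 samples, formed by the 9 genes and *ESR1* in the 4 groups, 7 held a sample that stood apart from the others on the log2 CPM scale, measured as its gap to the nearest sample divided by the range of the group, where chance would give about 2. 6 of the 7 were the libraries labelled growing replicate 4 and RIS replicate 2. In RIS replicate 2 the ratio was 0.670 for *HRAS* (2735 CPM, the others 1858 to 2110), 0.767 for *ESR1* (1741 CPM, the others 1238 to 1341), 0.781 for *MRAS* (94.4 CPM, the others 61.4 to 67.5) and 0.645 for *RASA1* (138 CPM, the others 60.4 to 81.0). In growing replicate 4 it was 0.785 for *MRAS* (64.6 CPM, the others 89.8 to 98.3) and 0.721 for *RASA1* (57.9 CPM, the others 110 to 141). The remaining one was *NF1* in RIS+shHMGA1 replicate 5, with a ratio of 0.743 (61.1 CPM, the others 36.5 to 41.7).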

How the results depend on the processing

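No called log2 fold change of the 9 genes changed sign under any alternative that was run. Apart from scaling by raw totals, only the interaction of *RASA1* (−0.53) moved by more than the spread between replicates. It was −0.18 without growing replicate 4 and RIS replicate 2. That spread includes both libraries, so it cannot judge fits without them, such as −0.79 instead of −0.44 for *RASA1* in RIS against growing. Values near 0 changed sign, such as that of *NF1* in RIS against growing (0.02, and −0.21 without these libraries). In RIS+shHMGA1 against shHMGA1 the number of the 9 genes called was 2 and became 1 under RLE normalisation. At a false discovery rate of 0.05 or under DESeq2 it was 1 each in RIS and in shHMGA1 against growing, instead of 0. Without both libraries it was 2 and 1.

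For the RAS pathway list in RIS against growing, 4 genes were called higher and 1 lower at a false discovery rate of 0.05, 1 higher under DESeq2, and 13 higher and 8 lower without the 2 libraries, instead of 0. In RIS+shHMGA1 against growing 17 were called higher without the 2 libraries instead of 11. In RIS+shHMGA1 against RIS, instead of 0, there were 4 higher and 3 lower at a false discovery rate of 0.05, 2 higher and 1 lower under DESeq2, 1 higher with only the samples of the comparison and 3 higher without the 2 libraries.

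With samples left out by number or singly, the number of the 9 genes called was 1 to 3 in RIS+shHMGA1 against shHMGA1, 0 to 2 in RIS against growing, 3 to 5 in RIS+shHMGA1 against growing, 0 to 1 in shHMGA1 against growing and 1 to 4 in RIS+shHMGA1 against RIS. The call of *RRAS2* in RIS+shHMGA1 against growing was lost without the samples numbered 5 (−0.44) or 6 (−0.58). *RRAS2* in RIS+shHMGA1 against shHMGA1 became called without the samples numbered 1 (−0.67), *EVI2B* in the same comparison without those numbered 4 (0.93), *NF1* in RIS+shHMGA1 against growing without those numbered 4 (−0.65) or 5 (−0.70), and *NF1* (−0.61) and *RASA1* (−0.65) in RIS+shHMGA1 against RIS without those numbered 4. The pathway list had 7 to 15 genes higher and 2 to 9 lower in RIS+shHMGA1 against shHMGA1, fewest higher without the samples numbered 3 and fewest lower without those numbered 1. It had 0 to 11 higher and 0 to 4 lower in RIS against growing, 2 to 17 higher and 7 to 15 lower in RIS+shHMGA1 against growing, and 0 to 4 higher and 0 to 4 lower in RIS+shHMGA1 against RIS. Beyond fewer samples, the cause was not tested.

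The main fit did not pair samples by replicate number. Deviations of same-numbered samples from their group means correlated at 0.175 on average but at −0.594 in the lowest of 36 pairs. Of these pairs 24 were over 0.1, against 57 of 180 pairs with different numbers (mean −0.050). 8 of 24 samples correlated best with their own number. With the replicate block, the pathway list had 3 genes higher in RIS+shHMGA1 against RIS instead of 0, 2 of the 9 genes were called in RIS+shHMGA1 against shHMGA1 (*EVI2B* in place of *HRAS*), and 0 were called in RIS against growing. Over all genes in RIS+shHMGA1 against RIS the block gave 1242 higher and 395 lower instead of 236 and 105. With the block, the standard error in RIS+shHMGA1 against shHMGA1 became 0.12 instead of 0.19 for *RRAS* (−0.43) and 0.11 instead of 0.14 for *HRAS* (−0.58).

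On raw totals instead of TMM library sizes, the median of all genes in RIS+shHMGA1 shifted by −0.46 against shHMGA1, −0.39 against growing and −0.34 against RIS on the log2 scale. *NRAS* then changed sign in these 3 comparisons, and *RRAS* (−0.19) and *RRAS2* (−0.26) changed sign against RIS. Against shHMGA1, *HRAS* in RIS+shHMGA1 was then at −1.01 instead of −0.58 and *RASA1* at −1.41 instead of −0.98, each computed from mean log2 CPM. Of 36 group means 8 moved by more than their SD. *EVI2A* (2.58) and *EVI2B* (1.16) remained higher in RIS+shHMGA1 than in RIS.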
